A study of Mus musculus with 6 samples.

Results

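Secreted Wnt inhibitors are proteins that cells release and that keep Wnt ligands from reaching or using their receptors. The 7 genes described here are Sfrp1, Sfrp2, Sfrp4, Frzb, Wif1, Dkk2 and Dkk3, found by their symbols among the 31053 genes listed for each library; each symbol occurred once. Wnt ligands bind Frizzled receptors together with the co-receptors Lrp5 and Lrp6. The secreted Frizzled-related proteins (Sfrp1, Sfrp2, Sfrp4 and Frzb, also called Sfrp3) and Wif1 bind Wnt ligands outside the cell, Dkk2 acts on Lrp5 and Lrp6, and Dkk3 is a divergent member of the Dickkopf family whose effect on Wnt signalling varies with context. In injured organs these genes are best known from fibroblasts, the cells that lay down the collagen scar.

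The study took 6 single-cell RNA libraries, 3 from heart and 3 from brain, from Tbx18CreER/+;Rosa26tdT/+ mice given tamoxifen by intraperitoneal injection over 4 days and then a washout of a week. In the heart, 1 library came from the left ventricular infarct after ligation of the left anterior descending artery, 1 from the peri-infarct tissue of the same injury and 1 from ventricles after sham surgery; atria were removed before digestion with Collagenase and Dispase. In the brain, 1 library came from the necrotic core of a photothrombotic stroke, 1 from the peri-infarct tissue and 1 from sham-operated animals, each from cortex digested with the Miltenyi Adult Brain Dissociation Kit. All cells were sorted for the red reporter tdT, which Cre switches on in Tbx18-expressing cells such as pericytes and vascular smooth muscle, and sequenced with 3' 10x Genomics v3 chemistry; the labels give no age, no interval between injury and harvest and no animal number. A Tbx18-driven Cre also marks other Tbx18-expressing cells, so non-mural cells can be among those sorted. The cell classes used here were set afterwards, by marker genes in the sequenced cells.

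With 1 library per group no difference had a replicate check, so no test was made. Values are unique molecular identifiers (UMIs, counted RNA molecules) summed per cell class and library and scaled to 1000000 (CPM), ratios are log2 of (CPM + 1) over (CPM + 1), and all intervals are 95% exact and cover counting error only. Values given as N-fold are plain ratios of CPM, without the added 1, so for low values they are larger than the log2 ratios beside them. A gene counted as higher or lower when its CPM + 1 differed at least 2-fold and its mean over both sums was at least 50 CPM, and each count of such genes is set beside the percentage of all measured genes past that filter that met the same rule. Where the lower sum lies far under 50 CPM, a gene passes only through the higher sum. Its call then follows from the filter. Because 3' counts were not scaled by length, levels are compared between cells, not between genes.

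The libraries held 9470 barcodes in heart infarct, 9580 in heart peri-infarct and 17951 in heart sham, and between 2368 and 2808 in the brain libraries. Depth was unequal: the cells kept had a median of 10858 UMIs in heart infarct, 8976.5 in heart peri-infarct and 1408 in heart sham, and of 26159, 2944 and 3374 UMIs in brain infarct, peri-infarct and sham. Fibroblast marker RNA in endothelial cells, a measure of free RNA, was 3.05%, 3.74% and 16.4% of its level over all cells in heart infarct, peri-infarct and sham, and 3.2%, 5.15% and 1.41% in the brain libraries in the same order. Cells were classed by lists of 8 markers. Cells that matched more than 1 class were left out, and they made up 4.75%, 6.61% and 32.5% of kept cells in heart infarct, peri-infarct and sham. Between 1.03% and 9.35% of the barcodes of a library also occurred in another library.

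Each class was gated on its own list, so the level of that list is no separate check. Classes of both organs carried lists of other classes as well. The fibroblast list stood at 25890 CPM in heart infarct fibroblasts, 23660 in peri-infarct and 22100 in sham, while the pericyte list in these cells stood at 300.7, 293.8 and 1379 CPM. In brain fibroblasts the fibroblast list stood at 16550 CPM in infarct, 15370 in peri-infarct and 13790 in sham, but the pericyte list differed more, at 206.5, 1614 and 3466 CPM, and the astrocyte list stood at 256.9, 4527 and 10120 CPM; the astrocyte and pericyte lists were thus high in peri-infarct and sham, and the part of that RNA in the brain fibroblast values below was not tested. Arachnoid-like cells, the barrier cells of the outer brain covering, carried their list at 2259, 2054 and 2564 CPM, with the fibroblast list at 4437, 2634 and 2604 CPM, above their own list in every library. Tbx18 itself was not limited to mural cells: it stood at 22.1 CPM in heart infarct fibroblasts, 25.2 in peri-infarct and 24.9 in sham, against 29.5, 35.2 and 25.5 CPM in mural cells.

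In heart fibroblasts the family did not move as a block. Infarct fibroblasts had more Sfrp1, Sfrp2 and Frzb than sham fibroblasts and almost no Wif1, while Dkk3 differed by less than 2-fold. Of the 7 genes, 5 passed the filter on low values between infarct and sham: 3 were higher and 1 was lower. Of 2928 genes past the filter 12.0% were at least 2-fold apart, 6.73% higher and 5.29% lower. Wif1, the lower member, passed only through sham (154.8 CPM, against 0.189 in infarct), so its call follows from the filter. The numbers of fibroblasts behind these values were 5829 in infarct, 4599 in peri-infarct and 3907 in sham.

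Sfrp1 (ENSMUSG00000031548, chromosome 8, 23411502 to 23449632, plus strand, GENCODE annotation of mm10), which binds Wnt ligands through its Frizzled-like domain, had 614.7 CPM in infarct fibroblasts (interval 609.2 to 620.1), 321.0 in peri-infarct (316.2 to 325.8) and 167.4 in sham (158.1 to 177.0). Infarct was highest and sham lowest, and the intervals did not overlap. The ratio to sham was 1.87 in infarct, or 3.67-fold (3.47 to 3.89), and 0.94 in peri-infarct, just short of 2-fold. With every cell thinned to 1000 UMIs, 38.1%, 23.0% and 15.8% of fibroblasts held a Sfrp1 UMI in infarct, peri-infarct and sham, against 1.67%, 0.178% and 4.13% of endothelial cells, which should lack the gene.

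Sfrp2 (ENSMUSG00000027996, chromosome 3, 83766321 to 83774316, plus strand), a Frizzled-related protein that has also been linked to procollagen processing, had 581.9 CPM in infarct fibroblasts, 202.3 in peri-infarct and 119.9 in sham. Peri-infarct lay nearer to sham than to infarct, and the excess in infarct was the largest among the members past the filter, 4.85-fold over sham (4.54 to 5.19, log2 2.27) and 2.88-fold over peri-infarct (2.82 to 2.94, log2 1.52). In thinned cells 29.3%, 10.6% and 8.27% of fibroblasts held a Sfrp2 UMI, against 2.5%, 0.268% and 2.86% of endothelial cells.

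Frzb (ENSMUSG00000027004, chromosome 2, 80411970 to 80447625, minus strand), the Frizzled-related protein first known from cartilage, had 171.3 CPM in infarct fibroblasts, 134.8 in peri-infarct and 66.5 in sham. Both injured regions stood above sham, by 2.58-fold in infarct (2.35 to 2.83) and 2.03-fold in peri-infarct (1.85 to 2.23). Frzb was thus the 1 member past 2-fold between peri-infarct and sham, where 5 members passed the filter and 5.18% of 2991 genes were at least 2-fold apart, with 2.81% higher. Its excess in peri-infarct lay at the 2-fold line and was below it under 8 of 14 alternative settings, the lowest log2 ratio being 0.86.

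Wif1 (ENSMUSG00000020218, chromosome 10, 121033960 to 121100650, plus strand), which binds Wnt ligands through its own WIF domain, took the opposite course. It had 0.189 CPM in infarct fibroblasts (0.106 to 0.312), 122.8 in peri-infarct (119.9 to 125.8) and 154.8 in sham (145.9 to 164.1). These values rested on 15 UMIs in infarct, 6702 in peri-infarct and 1132 in sham, and the infarct library was the deepest of the 3. Wif1 was 818-fold lower in infarct than in sham (494.0 to 1470.0) and 649-fold lower than in peri-infarct (393.0 to 1160.0) as plain ratios of CPM; with 1 CPM added to each value the log2 ratios were -7.03 and -6.70. Between infarct and peri-infarct, 1 of 5 members past the filter was higher (Sfrp2) and 1 lower (Wif1). Of 3014 genes 2.52% were at least 2-fold apart, 1.26% higher and 1.26% lower. Wif1 passed only through peri-infarct, so its lower call follows from the filter. With the most abundant marker left out of every class list (Dcn for heart fibroblasts), peri-infarct Wif1 had 28.9 CPM, against 0.204 in infarct. Its mean then lay under the filter and the call between infarct and peri-infarct was lost, while the call against sham was kept. Over all kept cells Wif1 had 17 UMIs in 16 of 8681 infarct cells, 7290 UMIs in 561 of 7956 peri-infarct cells and 2052 UMIs in 1016 of 13630 sham cells.

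Dkk3 (ENSMUSG00000030772, chromosome 7, 112116017 to 112159057, minus strand) had 145.9 CPM in infarct fibroblasts, 198.3 in peri-infarct and 176.2 in sham, a spread of less than 2-fold. Sfrp4 (ENSMUSG00000021319, chromosome 13, 19623104 to 19632994, plus strand) had 4.29, 5.24 and 4.79 CPM, and Dkk2 (ENSMUSG00000028031, chromosome 3, 132085292 to 132180304, plus strand) had 2.65, 1.06 and 0.684 CPM in the same order. These last members were far below the 50 CPM filter in heart fibroblasts of every library, and no ratio is read from them.

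**Figure D1:**
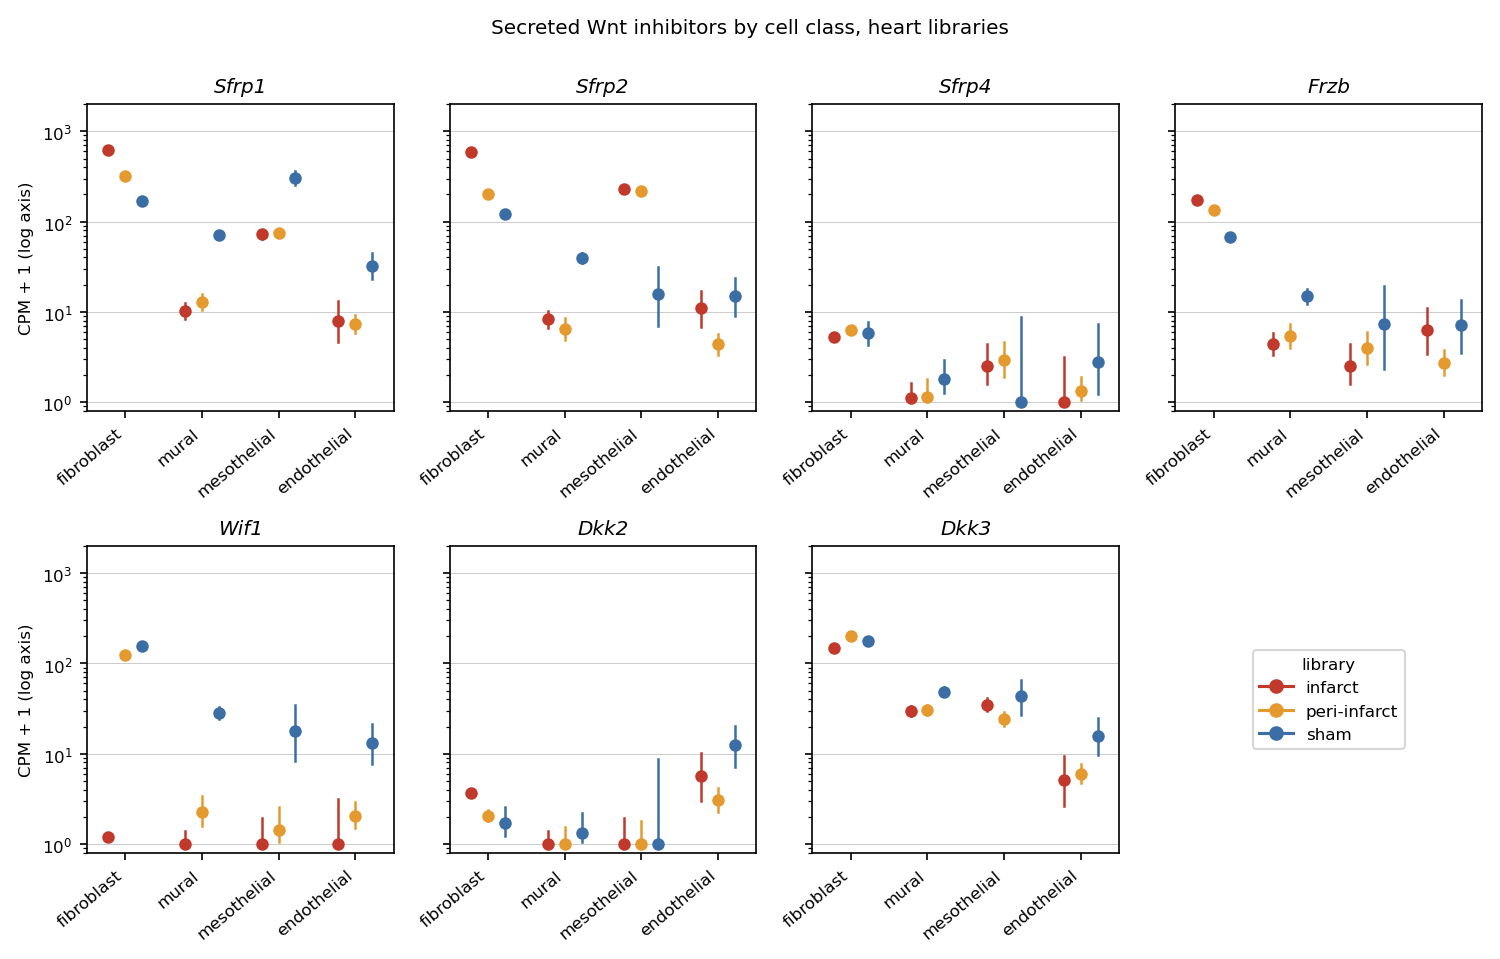
Each panel shows 1 gene in the heart libraries, as CPM + 1 on a log axis, for fibroblasts, mural, mesothelial and endothelial cells; points are class sums for infarct (red), peri-infarct (orange) and sham (blue), and bars are exact 95% Poisson intervals. In fibroblasts Sfrp1, Sfrp2 and Frzb are highest in infarct, and Wif1 is near 0 there, at 0.189 CPM.

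The proximal promoters are printed for the members that had one available, whatever their levels. RefSeq (GRCm38.p6) gave a promoter for 4 of the 7 members, Sfrp2, Frzb, Wif1 and Dkk2; Sfrp1, Sfrp4 and Dkk3 were not matched. The 250 bases before each start are shown 5′ to 3′ on the strand of the gene. They lie at chr3:83766071-83766320 (plus) for Sfrp2, chr2:80447397-80447646 (minus) for Frzb, chr10:121033754-121034003 (plus) for Wif1 and chr3:132085042-132085291 (plus) for Dkk2. These starts are RefSeq's. For Frzb and Wif1 they lie inside the gene bounds given above, so nearly all of the Frzb window and the last bases of the Wif1 window fall within the GENCODE gene. Capitals mark every match on either strand to a TCF/LEF core (CTTTGA or TCAAAG), the letters bound by the transcription factors at the end of the Wnt pathway, or to a TATA box (TATAAA or TTTATA); these motifs do not overlap here.
Sfrp2: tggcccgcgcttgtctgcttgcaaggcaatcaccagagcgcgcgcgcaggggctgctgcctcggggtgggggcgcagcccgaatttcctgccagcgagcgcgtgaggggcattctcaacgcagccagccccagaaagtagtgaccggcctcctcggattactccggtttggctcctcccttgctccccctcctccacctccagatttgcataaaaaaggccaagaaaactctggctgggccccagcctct
Frzb: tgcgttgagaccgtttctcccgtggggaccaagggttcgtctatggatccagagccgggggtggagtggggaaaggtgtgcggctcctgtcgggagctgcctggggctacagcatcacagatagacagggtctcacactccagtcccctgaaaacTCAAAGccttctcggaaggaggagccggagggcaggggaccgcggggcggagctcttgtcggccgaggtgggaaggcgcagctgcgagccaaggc
Wif1: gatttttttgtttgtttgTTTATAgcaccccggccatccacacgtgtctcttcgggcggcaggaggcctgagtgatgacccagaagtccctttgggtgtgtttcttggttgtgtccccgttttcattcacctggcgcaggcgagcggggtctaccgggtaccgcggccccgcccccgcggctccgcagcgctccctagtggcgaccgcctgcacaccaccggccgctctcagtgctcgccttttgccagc
Dkk2: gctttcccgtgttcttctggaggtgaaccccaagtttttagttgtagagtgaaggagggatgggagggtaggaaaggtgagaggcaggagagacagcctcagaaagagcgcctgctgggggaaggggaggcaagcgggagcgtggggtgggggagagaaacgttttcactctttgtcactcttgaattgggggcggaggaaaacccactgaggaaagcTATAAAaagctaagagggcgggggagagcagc
Frzb held a TCF/LEF core 95 to 90 bases before its RefSeq start, a motif found in 13.8% of 32851 promoter windows of the same length. Dkk2 held a TATA box 32 to 27 bases before its start, and Wif1 the same letters on the other strand 232 to 227 bases before its own RefSeq start; 12.4% of windows held a TATA box. Sfrp2 held none of these letters, and none of the 4 windows held the AP-1 motif TGACTCA or TGAGTCA, which 4.46% of windows held. These matches describe letters in a window and were not tied to the levels.

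Within the heart fibroblasts the inhibitors marked different subsets. The fibroblasts were split by 4 lists that hold no member: an activated list (Cthrc1, Postn, Ddah1, Lox), a Comp-rich list (Comp, Cilp, Thbs4, Chad, Fmod), a Pi16-rich list (Pi16, Dpp4, Sema3c, Cd248) and a resident-like list (Dpep1, Smoc2, Inmt, Hsd11b1). Cells matching none or more than 1 of the lists were called no subset, and they were 2408 of the infarct, 2002 of the peri-infarct and 1956 of the sham fibroblasts. Each subset is set against the other fibroblasts of the same library. Depth still differed within a library: activated, Comp-rich and resident-like cells had medians of 13078, 9200.5 and 8462 UMIs in infarct, and of 16495, 8419 and 8113 UMIs in peri-infarct, and the part of depth in the subset values was not tested.

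Activated fibroblasts, the collagen-rich state of a healing infarct, numbered 2573 in infarct, 613 in peri-infarct and 19 in sham, too few in sham for a comparison. In the infarct they had 751.0 CPM of Sfrp2, against 431.0 in the other fibroblasts, and 228.5 CPM of Frzb, against 120.3. No member reached 2-fold there, where 1.81% of genes past the filter did. In the peri-infarct library activated cells had 392.4 CPM of Sfrp2, against 153.9 in the other fibroblasts (2.55-fold), and 34.9 CPM of Wif1, against 145.2 (4.16-fold lower), so 1 of 5 members past the filter was higher and 1 lower, where 1.57% of genes were higher and 1.84% lower. The Wif1 ratio ran from -2.22 to -0.54 on the log2 scale, and its call was lost with thinned cells (111.1 against 187.0 CPM) and with gates without their most abundant marker (21.5 against 31.7 CPM). Sfrp2 was not limited to activated cells, since infarct fibroblasts outside this subset still had 431.0 CPM, against 119.9 CPM over all sham fibroblasts.

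Comp-rich fibroblasts, named for cartilage and tendon matrix genes, numbered 60 in infarct, 154 in peri-infarct and 193 in sham, or 1.03%, 3.35% and 4.94% of fibroblasts. Wif1 had no UMI in the 60 infarct cells (up to 6.06 CPM), 1036 CPM in peri-infarct and 966.7 CPM in sham. Dkk3 had 261.2, 791.5 and 670.6 CPM, and Frzb 267.7, 396.8 and 220.2 CPM in the same order. Among the fibroblast subsets of at least 50 cells, Wif1 and Dkk3 were highest in the Comp-rich cells of peri-infarct and sham.

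Set against the other fibroblasts, peri-infarct Comp-rich cells had 10.7-fold more Wif1, 4.36-fold more Dkk3 and 3.11-fold more Frzb, and 2.87-fold less Sfrp1, at 113.7 against 326.8 CPM. Thus 3 of 5 members past the filter were higher and 1 lower, where 2.62% of genes were higher and 3.19% lower. In sham the same subset had 8.92-fold more Wif1, 4.53-fold more Dkk3, 3.82-fold more Frzb and 3.05-fold more Sfrp2, 4 of 5 members past the filter, where 2.5% of genes were higher; the Sfrp2 excess was under 2-fold without the top 5% of UMIs (log2 0.87). In infarct 0 of 4 members past the filter reached 2-fold, where 2.51% of genes did.

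The Comp-rich cells of the infarct were not the same kind of sum as those of the other libraries. In them the activated list stood at 5225 CPM, against 2033 in peri-infarct and 776.9 in sham, and Dcn at 8611 CPM, against 19570 and 22190. Of these cells 34 of 60 lay near the gate's thresholds, compared with 40 of 154 in peri-infarct and 53 of 193 in sham. The part of these differences in the missing Wif1 signal was not tested; the other infarct subsets also held at most 0.241 CPM of Wif1.

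Most Wif1 lay outside the named subsets. The no-subset fibroblasts held 69.6% of fibroblast Wif1 UMIs in peri-infarct and 54.7% in sham, at 196.1 and 171.3 CPM, and Comp-rich cells held 23.1% and 33.8%. Resident-like cells, 1433 in peri-infarct and 1313 in sham, had 6.62 and 38.9 CPM of Wif1 and 61.3 and 86.4 CPM of Dkk3, and in both libraries Wif1 and Dkk3 were the members at least 2-fold lower there than in the other fibroblasts, where 1.3% and 0.546% of genes were lower. Peri-infarct Wif1, at 6.62 CPM in resident-like cells, passed only through the other fibroblasts, so that call follows from the filter. Gates without their most abundant marker left its mean under the filter. Pi16-rich cells, 186 in infarct, 397 in peri-infarct and 426 in sham, had 0 CPM of Wif1 in infarct, 2.86 in peri-infarct and 30.4 in sham. The sham values of Wif1 in these subsets lay above the 12.2 CPM measured in sham endothelial cells, and the part of free RNA in them was not tested.

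Sfrp1 ran the other way and was highest in resident-like cells, level with activated cells in peri-infarct. They had 864.4 CPM in infarct (602 cells), 423.3 in peri-infarct and 214.5 in sham, against 696.2 and 420.5 CPM in the activated cells of infarct and peri-infarct. Pi16-rich cells had less of most members: in infarct they had 309.4 CPM of Sfrp1, 186.9 of Sfrp2 and 58.1 of Frzb, each at least 2-fold below the other fibroblasts, where 3.35% of genes were lower. The Sfrp1 call lay at the 2-fold line (log2 -1.01) and was lost under 5 alternatives, the smallest ratio being -0.64, and in sham the ratio was -0.03. The order of the libraries for Sfrp1, infarct then peri-infarct then sham, held in the Pi16-rich, resident-like and no-subset cells.

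**Figure D2:**
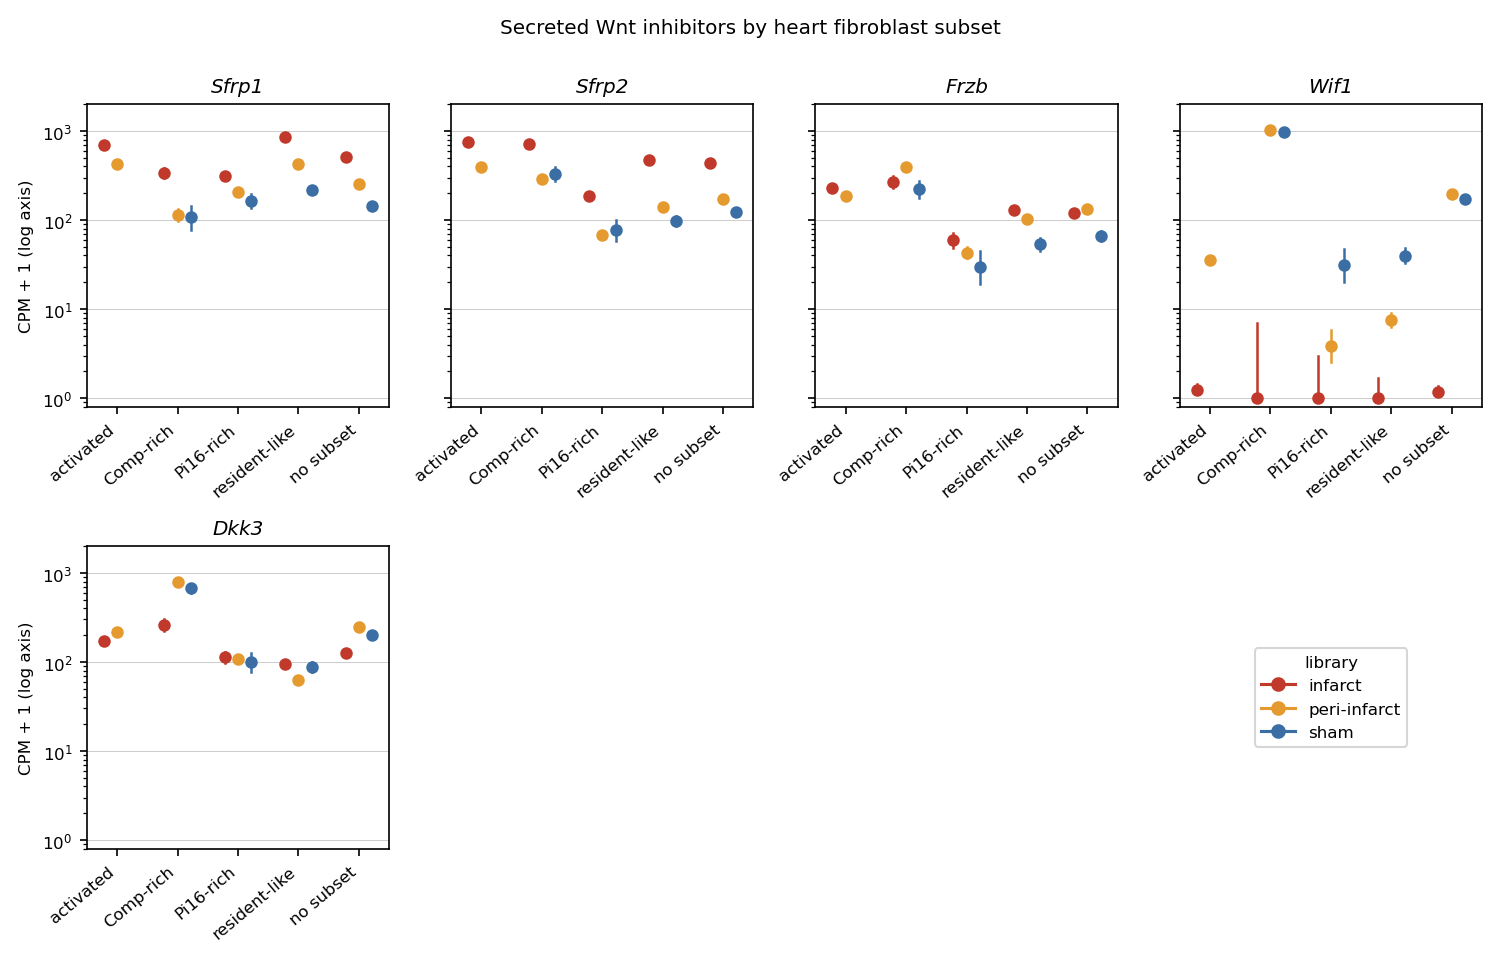
Each panel shows 1 of the 5 members above the filter in heart fibroblast subsets, as CPM + 1 on a log axis, for infarct (red), peri-infarct (orange) and sham (blue), with exact 95% Poisson intervals; activated sham cells (19) are not drawn. Wif1 and Dkk3 peak in Comp-rich cells of peri-infarct and sham, at 1036 and 966.7 CPM and at 791.5 and 670.6 CPM, while Sfrp1 is lowest there.

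Single cells carried Wif1 and Dkk3 together. In peri-infarct fibroblasts thinned to 1000 UMIs, 57.3% of the 281 cells with a Wif1 UMI also held a Dkk3 UMI, against 12.7% of the 4310 cells without one. In sham the shares were 41.7% of 283 cells and 11.4% of 2923. Sfrp1 went the other way, at 9.61% with Wif1 and 23.9% without in peri-infarct, and at 9.19% and 15.4% in sham. Frzb was found in 21.4% and 10.5% of peri-infarct cells with and without Wif1, and Sfrp2 was in 10.3% of those with it. At 5000 UMIs, which only the deeper libraries allow for most cells, 92.6% of 407 peri-infarct cells with Wif1 held Dkk3, against 39.4% of 3740 without.

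Wif1-positive cells differed from other fibroblasts in genes beyond the family. In peri-infarct they had 21340 CPM of Dcn, a small matrix proteoglycan, against 14030 CPM in Wif1-negative cells, but 1187 CPM of Col1a1, the main scar collagen, against 2734. The Comp-rich list stood at 1946 CPM in Wif1-positive and 451.7 in Wif1-negative cells, and the resident-like list at 37.4 and 896.0 CPM. In sham Dcn and these lists went the same way, with Dcn at 20610 against 16010 CPM. Col1a1 did not, at 1417 CPM with Wif1 against 1268 without, and the activated list stood at 543.2 against 300.5 CPM. With the most abundant marker left out of every class list (Dcn for fibroblasts), the gates kept 5277 infarct, 2048 peri-infarct and 373 sham fibroblasts. Wif1 then stood at 0.204, 28.9 and 190.1 CPM. The part of Dcn alone was not tested. The low infarct level held under those gates, whereas peri-infarct Wif1 was then more than 2-fold below sham.

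In infarct fibroblasts, where Wif1 was nearly absent, the other members overlapped. At 5000 UMIs, 84.3% of the 2861 cells with a Sfrp2 UMI held Sfrp1, against 66.4% of the 2675 cells without, and 52.9% held Frzb, against 41.9%. Dkk3 was found in 46.1% of cells with Sfrp2 and 44.8% of cells without.

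**Figure D3:**
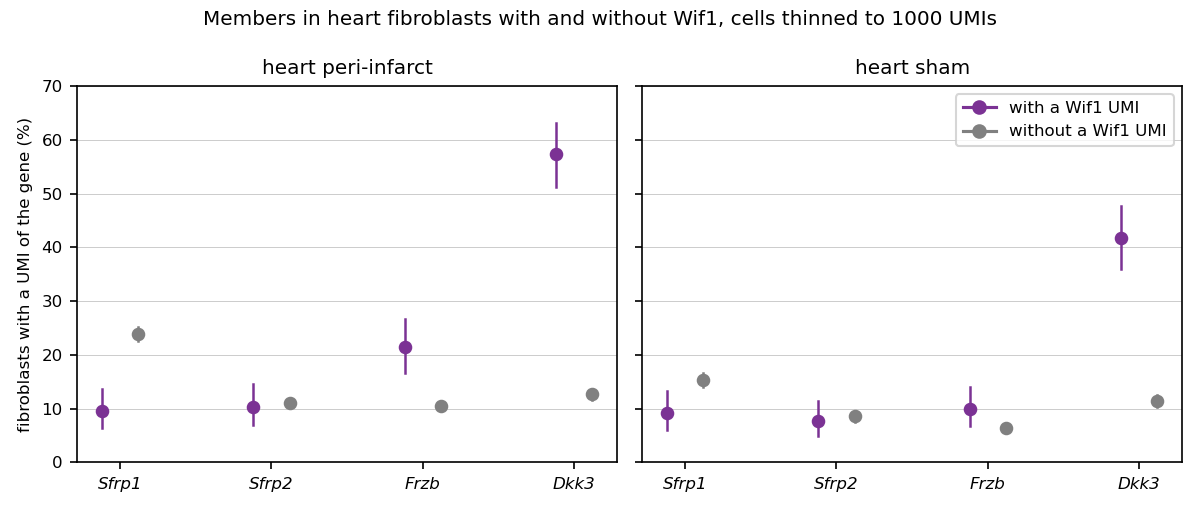
The share of heart fibroblasts (%) with a UMI of Sfrp1, Sfrp2, Frzb or Dkk3 is shown for cells with (purple) and without (grey) a Wif1 UMI in peri-infarct (left) and sham (right), after thinning to 1000 UMIs, with exact 95% Clopper-Pearson intervals. Dkk3 is found in 57.3% of Wif1-positive and 12.7% of Wif1-negative peri-infarct cells, and Sfrp1 in 9.61% and 23.9%.

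Heart mural cells, the pericytes and smooth muscle cells of vessel walls, carried little of any member. In the peri-infarct library 5 members passed the filter, each through fibroblasts, since their mural values were at most 29.6 CPM (Dkk3). All 5 were at least 2-fold higher in fibroblasts than in mural cells, where 10.6% of 3179 genes were. With mural values this low the filter set that outcome, so the count is not read as a result. The excess in fibroblasts was 27.2-fold for Sfrp1, 37.4-fold for Sfrp2, 30.5-fold for Frzb, 95.8-fold for Wif1 and 6.7-fold for Dkk3. With gates without their most abundant marker Wif1 had 28.9 CPM in fibroblasts, against 17.5 in mural cells (log2 0.69), which ended its call. Mural Sfrp1 stood at 9.21 CPM in infarct, 11.8 in peri-infarct and 70.6 in sham, Sfrp2 at 7.24, 5.41 and 38.4, and Wif1 at 0, 1.28 and 27.5. No member passed the filter between injured and sham mural cells (0 called, where 13.8% of genes were at least 2-fold apart for infarct and 10.1% for peri-infarct). The fibroblast list in mural cells stood at 2065 CPM in infarct, 1985 in peri-infarct and 4452 in sham, alongside the higher free RNA of sham given above, and their part in the higher sham values was not tested.

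Mesothelial cells, the epicardial lining of the heart, held Sfrp2 and Sfrp1 in opposite orders. Sfrp2 had 228.9 CPM in infarct (193 cells), 217.4 in peri-infarct (201 cells) and 14.8 in sham (232 cells), while Sfrp1 had 71.1, 73.7 and 304.0 CPM. Of the 2 members past the filter, Sfrp2 was higher and Sfrp1 lower in both injured libraries. Of all genes past the filter 9.5% were higher and 14.1% lower for infarct, and 8.09% higher and 11.1% lower for peri-infarct. With 14.8 CPM in sham, Sfrp2 passed only through the injured libraries, so its higher calls follow from the filter. In fibroblasts, by contrast, Sfrp1 was highest in infarct. The median depth of the mesothelial cells was 17338, 20311 and 1278 UMIs, and with every cell thinned to 1000 UMIs before gating both members were still past 2-fold in the same directions. The fibroblast list in mesothelial cells stood at 8674, 8614 and 8573 CPM, above their own list (7157, 8114 and 7517 CPM) in every library. Near the gate's thresholds lay 18.1%, 12.9% and 31.9% of them in infarct, peri-infarct and sham. The part of either in the Sfrp2 and Sfrp1 values was not tested.

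Dkk3 was the called member with the smallest excess of fibroblasts over mural cells in peri-infarct. It had 28.7 CPM in infarct mural cells, 29.6 in peri-infarct and 47.5 in sham, against 4.07, 5.01 and 14.9 CPM in endothelial cells. Within infarct mural cells Dkk3 was higher in pericytes than in smooth muscle, at 36.8 against 10.1 CPM (3.64-fold, 2.46 to 5.6), whereas the peri-infarct values, 31.2 and 26.9 CPM, did not differ beyond counting error. Sfrp1 ran opposite, with 5.98 CPM in pericytes and 16.6 in smooth muscle of the infarct, and 4.71 and 24.2 CPM in peri-infarct. These levels are under the 50 CPM filter and are values, not calls.

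In the brain the detected members were partly different ones. Brain infarct fibroblasts had Sfrp4, Dkk2, Wif1 and Dkk3, little Sfrp1 and Frzb and next to no Sfrp2. Heart infarct fibroblasts had 4.29 CPM of Sfrp4, beside 231.8 CPM in brain infarct fibroblasts, and 581.9 CPM of Sfrp2, beside 0.0939 CPM. Organ, digestion, injury and library cannot be told apart in that contrast. The brain fibroblasts numbered 1119 in infarct, 77 in peri-infarct and 107 in sham, with median depths of 36799, 3847 and 4325 UMIs, so the shallow groups set the precision.

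Sfrp4, a Frizzled-related protein, had 231.8 CPM in infarct fibroblasts (227.3 to 236.4), 388.9 in peri-infarct (335.2 to 448.8) and 48.6 in sham (31.8 to 71.2). It was the 1 of 7 members past the filter, and it counted as higher in infarct (4.77-fold, 3.25 to 7.3) and in peri-infarct (8-fold, 5.29 to 12.6), where 49.9% and 16.8% of genes were at least 2-fold apart and 19.2% and 6.73% were higher. With such shares of all genes past 2-fold, a call on 1 member is near the background. The shares of cells with a UMI at 1000 UMIs were 18.0% in infarct, 10.4% in peri-infarct and 0.962% in sham, against 0%, 0.296% and 0% of endothelial cells.

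The sham value rested on few cells. Sfrp4 was found in 838 of 1119 infarct fibroblasts, 13 of 77 peri-infarct and 4 of 107 sham fibroblasts, and the sham cells held 14, 9, 2 and 1 UMIs. Under gates without their most abundant marker every class list lost a gene, for fibroblasts Col1a1, which is far higher in infarct cells. Fibroblasts then numbered 1104 in infarct, 120 in peri-infarct and 158 in sham. Sfrp4 stood at 243.0, 395.0 and 269.3 CPM, which ended both calls. The part of Col1a1 alone was not tested. Over all kept cells, which no gate shapes, Sfrp4 stood at 274.1 CPM in infarct, 160.7 in peri-infarct and 44.0 in sham. There the make-up of the library and the level per cell cannot be told apart. In infarct 9874 of 14841 UMIs lay in fibroblasts and 4208 in cells that matched more than 1 class, which had 941.6 CPM. In peri-infarct 187 of 1814 UMIs lay in fibroblasts, 812 in cells that matched more than 1 class and 660 in arachnoid-like cells. Of the 529 sham UMIs, 303 lay in cells that matched more than 1 class, and 1 of those cells held 181. The part of that cell in the sham value of 269.3 CPM was not tested.

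Dkk2, an inhibitor that acts on the co-receptors Lrp5 and Lrp6, had 34.9 CPM in infarct fibroblasts and no UMI in peri-infarct or sham fibroblasts (up to 7.67 and 6.90 CPM), at least 6.22-fold higher in infarct than the sham limit set by 3 counts over the group. Wif1 had 20.1 CPM in infarct and likewise no UMI in the others, at least 3.59-fold above the same limit. Both genes fell under the 50 CPM filter. Dkk3 had 49.3 CPM in infarct, 41.6 in peri-infarct and 13.1 in sham, from 2099, 20 and 7 UMIs. Sfrp1 had 5.45, 35.4 and 13.1 CPM and Frzb 6.41, 37.4 and 35.5 CPM, so Frzb was lowest in the infarct, unlike in the heart. Sfrp2 had 4 UMIs over the infarct fibroblasts, 0 in peri-infarct and 5 in sham, all 5 in 1 cell.

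Within brain infarct fibroblasts the inhibitors were lower in the cells richest in Acta2, the smooth muscle actin of contractile scar cells. The 654 cells above 500 CPM of Acta2 had 171.2 CPM of Sfrp4, against 349.0 in the other 465 (2.04-fold lower), and 28.5 CPM of Dkk3, against 89.4 (3.13-fold lower). Both members past the filter were thus lower, where 2.4% of 2705 genes were, but the Sfrp4 call lay at the 2-fold line (log2 -1.02, range -1.14 to -0.77) and was lost under 5 of 13 alternatives. Dkk2 did not share this pattern, at 39.2 against 26.5 CPM, and Wif1 stood at 16.6 against 26.9 CPM. Of the fibroblasts 361 of 1119 lay between 250 and 1000 CPM of Acta2, so the split cuts a continuous range. Sfrp4 and the other members showed no such pairing as Wif1 and Dkk3 in the heart. At 5000 UMIs Dkk2 was in 12.5% of the 479 cells with Sfrp4 and 15.1% of the 615 without, and Dkk3 in 22.5% and 20.8%.

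Arachnoid-like cells were the brain class with the highest Sfrp1. They had 112.0 CPM in infarct (72 cells), 146.2 in peri-infarct (391 cells) and 166.1 in sham (296 cells), which differed by less than 2-fold. In sham they exceeded fibroblasts 12.7-fold (6.11 to 31.7), at 166.1 against 13.1 CPM. Sfrp1 was 1 of 2 members past the filter, where 10.8% of 3651 genes were higher. It passed only through the arachnoid-like cells, so its higher call follows from the filter and the count is not read as a result. The fibroblast value rested on 7 UMIs. The log2 ratio of 3.57 ran from 2.36 to 4.56 under the alternatives, with 148.2 against 28.0 CPM under gates without their most abundant marker. Dkk3 was also steady in these cells, at 50.9, 70.8 and 84.5 CPM.

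Sfrp4 in arachnoid-like cells was highest in the infarct library and lowest in sham. It had 492.7 CPM in infarct (454.9 to 532.8), 176.3 in peri-infarct (163.1 to 190.3) and 65.7 in sham (56.5 to 75.8), or 7.5-fold and 2.69-fold over sham. It was the 1 member of 3 past the filter that was higher in each comparison, where 3.27% and 0.526% of genes were higher. The sham value here rested on 74 of 296 cells, far more than in sham fibroblasts, and the ratio stayed between 2.63 and 3.02 (log2) in infarct and between 1.01 and 1.52 in peri-infarct under every alternative that gave a value. The fibroblast list in these cells was 4437 CPM in infarct against 2604 in sham, and 29.2%, 18.7% and 8.45% of them lay near the gate's thresholds in infarct, peri-infarct and sham; the part of either in the Sfrp4 difference was not tested.

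**Figure D4:**
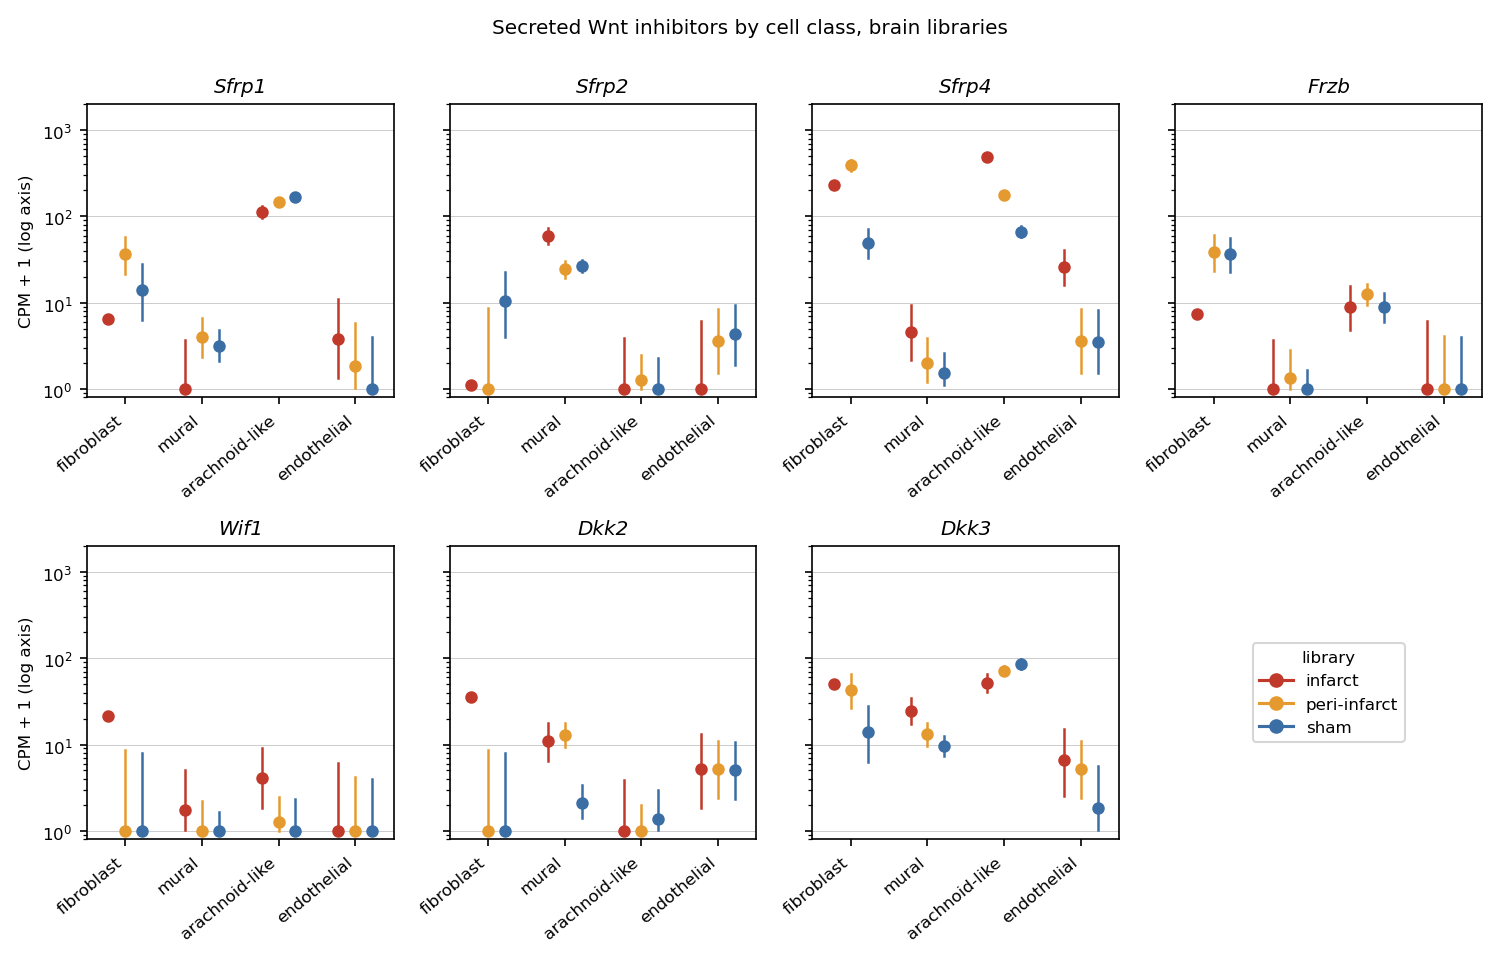
Each panel shows 1 gene in the brain libraries, as CPM + 1 on a log axis, for fibroblasts, mural, arachnoid-like and endothelial cells in infarct (red), peri-infarct (orange) and sham (blue), with exact 95% Poisson intervals. Sfrp4 is lowest in sham in fibroblasts and in arachnoid-like cells, at 48.6 and 65.7 CPM, and Sfrp2 is found mainly in mural cells.

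Under the main gates, mural cells were the brain class with the highest Sfrp2. It stood at 58.4 CPM in infarct (405 cells), 23.3 in peri-infarct (1179 cells) and 25.7 in sham (1636 cells), against 0, 2.56 and 3.29 CPM in endothelial cells. It lay in pericytes: 1403 sham pericytes had 33.6 CPM, against 0 in 233 sham smooth muscle cells (up to 2.86 CPM), and 1027 peri-infarct pericytes had 29.8 CPM, against 0 in 152 smooth muscle cells (up to 5.59 CPM). Dkk2 had 10.1 CPM in infarct mural cells, 12.0 in peri-infarct and 1.09 in sham, and Dkk3 had 23.8, 12.3 and 8.69 CPM. No member passed the filter in mural cells, where 6.14% of genes were at least 2-fold apart for infarct and 0.729% for peri-infarct, so these are values without a call. With gates without their most abundant marker, sham fibroblasts had 33.3 CPM of Sfrp2 and sham mural cells 25.7. The astrocyte list in brain mural cells stood at 5728, 5923 and 7144 CPM in infarct, peri-infarct and sham, and its part in these values was not tested.

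**Figure D5:**
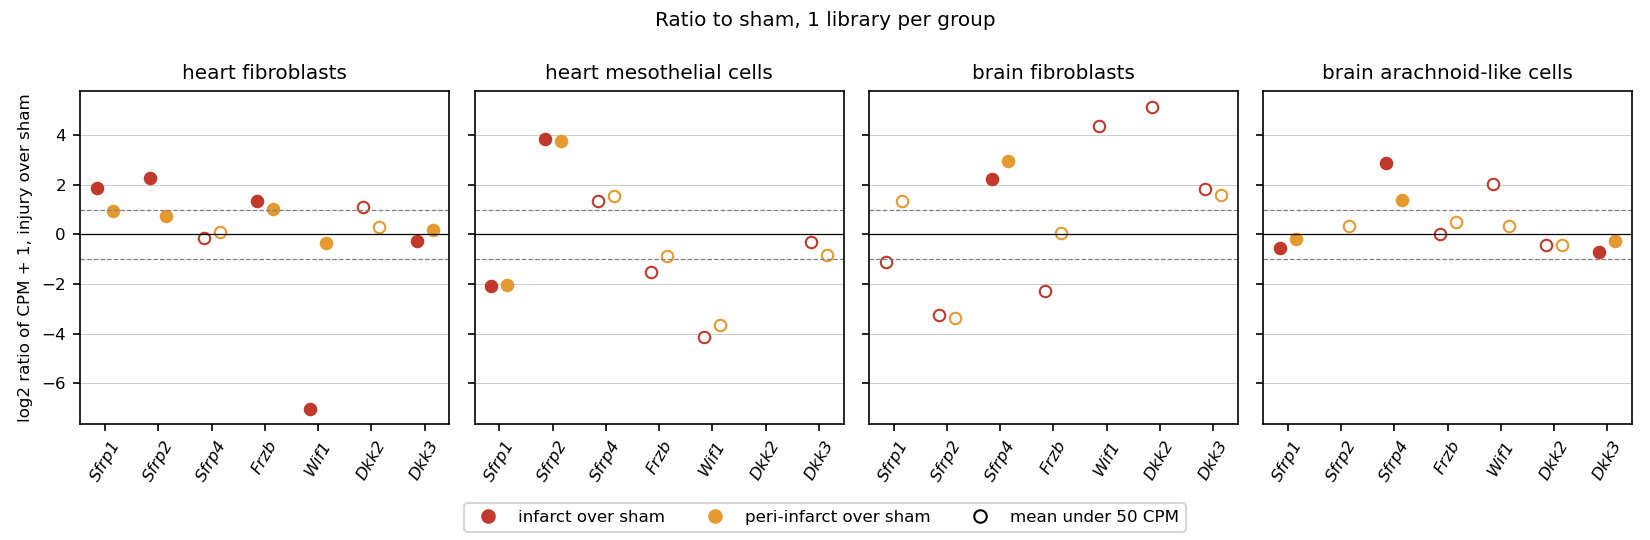
The log2 ratio of CPM + 1 to sham is shown for infarct (red) and peri-infarct (orange) in heart fibroblasts, heart mesothelial cells, brain fibroblasts and brain arachnoid-like cells; open circles are genes with a mean under 50 CPM and dashed lines mark 2-fold. Heart fibroblasts show Sfrp1, Sfrp2 and Frzb above 0 and Wif1 at -7.03 in infarct, and both brain classes show Sfrp4 above 2-fold.

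The rest of the Wnt pathway was read from lists of 10 other secreted inhibitors, 5 agonists, 19 ligands, 20 receptors and 15 targets and feedback genes. No ligand or agonist reached a mean of 50 CPM over both sums in a comparison of heart fibroblasts between libraries. The ligand Wnt4 had 68.2 CPM in infarct fibroblasts, 22.2 in peri-infarct and 10.9 in sham, so its means lay under the filter. Between infarct and sham 1 of the other inhibitors, 3 receptors and 3 targets passed, and of these only Bambi, a decoy receptor that Wnt and TGF-beta signals induce, was lower, at 25.7 against 76.6 CPM (log2 -1.54), where 5.29% of all genes past the filter were lower. Bambi was also low in infarct mural and endothelial cells, at 25.2 and 34.3 CPM, against 74.5 and 57.7 CPM in sham. Between infarct and peri-infarct fibroblasts the cell-cycle gene Ccnd1 was lower, at 35.7 against 92.9 CPM, where 1.26% of genes were lower. Sham fibroblasts had 46.35 CPM of Ccnd1, nearer to infarct than to peri-infarct. None of the listed genes past the filter reached 2-fold between peri-infarct and sham fibroblasts, where 5.18% of all genes did. Ccnd1 lay just under that line there, higher in peri-infarct at log2 0.99 (2.0-fold as a plain ratio of CPM). Under 2 alternatives for Bambi and 1 for Ccnd1 the mean lay under the filter, which ended the call.

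In heart mural cells Igfbp4, a secreted protein that can bind Frizzled and Lrp6, had 109.1 CPM in infarct, 173.4 in peri-infarct and 382.1 in sham, and it counted as lower in both injured libraries. Nkd1, a feedback gene that Wnt signalling induces, had 31.7, 48.8 and 75.8 CPM and counted as lower in infarct. Bambi had 25.2, 29.5 and 74.5 CPM in the same order, and it counted as lower in peri-infarct (log2 -1.31), while its mean lay under the filter for infarct. Of all genes past the filter 6.76% were lower in infarct mural cells and 4.97% in peri-infarct. The Nkd1 call was lost under 2 alternatives and the Igfbp4 call in peri-infarct under 1. The fibroblast list was also higher in sham mural cells, as given above, and its part here was not tested.

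In brain infarct fibroblasts several pathway genes were lower than in sham fibroblasts. Of the targets, Axin2, the most used readout of Wnt signalling, had 5.66 CPM in infarct, 68.6 in peri-infarct and 95.3 in sham, and Nkd1 had 5.80, 85.3 and 144.0 CPM. Wnt5a had 38.3 CPM in infarct and 216.9 in sham, and the receptor Fzd6 22.9 and 209.4 CPM. Axin2, Nkd1 and Fzd6 passed only through sham, so their lower calls follow from the filter. In all, 8 of the 12 listed genes past the filter were lower and 0 higher, where 30.7% of genes were lower. Of these, Rspo3 lost its call under 6 of 14 alternatives and changed sign under 3. Axin2, Fzd1 and Lrp6 each lost theirs under 2. With edgeR TMM factors the log2 ratios were -0.36 for Fzd1, -0.5 for Lrp6 and -0.27 for Rspo3. Axin2 then stood at -3.06 with its mean under the filter. The same infarct library kept Axin2 at 135.5 CPM in mural and 89.0 CPM in endothelial cells, against 96.5 and 88.0 CPM in those classes of sham. Nkd1, by contrast, counted as lower in infarct mural cells, at 16.6 against 87.1 CPM in sham, where 3.03% of genes were lower, and stood at 128.0 against 147.2 CPM in endothelial cells. The mural Nkd1 call was lost under 2 of 14 alternatives. In peri-infarct against sham brain fibroblasts Wnt4, Rspo3, Lgr4 and Bambi counted as higher, and Fzd6 and Nkd2 as lower. Of all genes past the filter 6.73% were higher there and 10.1% lower. Wnt4 had 251.6 against 46.7 CPM, from 121 and 25 UMIs, and kept its call under all 14 alternatives. The other calls were each lost under between 1 and 4 of them. The pericyte list in sham fibroblasts was far above that in infarct fibroblasts, as given above, and sham mural cells held both Axin2 and Nkd1 at the levels above; the part of such RNA in the sham fibroblast values was not tested. Arachnoid-like cells had 6.27 CPM of Axin2 in infarct, 13.6 in peri-infarct and 9.94 in sham, a low level throughout, beside 981.9 CPM of the Wnt agonist Rspo3 and 133.4 CPM of Wnt16 in sham.

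Across the 28 sums of at least 50 cells, some genes followed a member closely. By Pearson correlation of log2(CPM + 10), given as a description over sums that share libraries and depth, the most alike of 7233 genes were Scrn1, Pamr1 and Cd55 for Sfrp1 (0.90 to 0.88), Matn4, Serpina3n and Smtnl2 for Sfrp2 (0.89 to 0.81) and Cldn11, Smoc1 and Six2 for Sfrp4 (0.92 each). For Frzb they were Ssc5d, Svep1 and Mfap4 (0.96 to 0.91), for Wif1 Myoc, Scara5 and Dpep1 (0.90 to 0.85), for Dkk3 Dclk1, Igsf3 and Fbln1 (0.93 to 0.87), and for Dkk2 Mmp3, Pa2g4 and Ass1 (0.70 to 0.66). Among the members the highest value was 0.83, for Sfrp1 and Dkk3, and the lowest -0.40, for Sfrp2 and Sfrp4.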

How the data were processed

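The deposited values were UMI counts per gene and cell barcode from 6 libraries, 3' 10x Genomics v3, which the authors produced; the submitters' processing notes name Cell Ranger 3.0.2, Seurat 3 and the mm10 build. Library totals were between 11796570 and 107892408 counts, and every matrix held whole numbers.

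Cells with at least 500 genes and at most 10% mitochondrial UMIs were kept. A cell took a class when its 8-marker list reached 0.15 of the mean of the 50 cells highest for it in that organ, with at least 2 marker UMIs and 2 times the relative level of any other class; other cells were left out, and no doublet caller was run. Subsets needed 0.15 and a margin of 1.5. Brain infarct fibroblasts were split at 500 CPM of Acta2. The members, lists and thresholds were chosen with earlier results of these data known, and the thresholds after marker values were seen; a subset gated on Wif1, which had been planned, was not made, so that Wif1 could be read in every subset. Named genes were the 7 members, the 3 genes most alike each by Pearson correlation, and up to 4 of each pathway list past 2-fold. Gene coordinates came from the GENCODE annotation.

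UMIs were summed per class, scaled to 1000000 and compared without a test, using a pseudocount of 1 CPM; the calling script was tested on simulated counts. Intervals were exact Poisson or Clopper-Pearson (95%), and a floor was 3 counts. Shares of cells with a UMI were taken after thinning to 1000 UMIs, leaving out shallower cells. Python 3.11.15, numpy 2.4.6, scipy 1.17.1, pandas 2.3.3 and matplotlib 3.10.9 were used, with edgeR 4.0.16 in R 4.3.3 for the TMM factors of 1 alternative.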

Additional observations from a re-analysis of the deposited data

How the results depend on the processing

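No paired analysis was possible because each group is 1 library and the labels carry no replicate numbers. Results were recomputed under 14 alternatives, of which leaving out barcodes shared between libraries was chosen after seeing the data. In heart fibroblasts, infarct against sham, the log2 ratio stayed between 1.8 and 2.08 for Sfrp1, 1.5 and 2.6 for Sfrp2, 1.18 and 1.54 for Frzb, and -7.48 and -4.02 for Wif1; peri-infarct Wif1 ran from -2.68 to 0.13. Brain fibroblast Sfrp4 ran from -0.15 to 7.99 in infarct and from 0.55 to 7.81 in peri-infarct against sham, the lowest values coming from gates without their most abundant marker. Of the members' counts at least 2-fold apart, 29 of 151 recomputed counts moved by more than 1.5 times.

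Without a CPM filter the counts were 7 and 4 in brain fibroblasts (infarct and peri-infarct against sham; 1 each in the report), 5 and 1 in brain mural cells (0 each), 4 and 4 in heart mural cells (0 each) and 4 in arachnoid-like cells against fibroblasts (1). With a mean of at least 20 CPM they were 3 and 3 in brain fibroblasts, 1 in brain mural cells of the infarct, 2 and 2 in heart mural cells and 3 in arachnoid-like cells. Arachnoid-like cells against fibroblasts gave 2 with TMM factors, thinned cells, a doubled gate level or gates without their most abundant marker, and brain infarct mural cells gave 1 with thinned cells. Heart fibroblasts, peri-infarct against sham, gave 0 with a pseudocount of 10 CPM, the mean of per-cell CPM, thinned cells, a doubled gate margin or free RNA subtracted. Frzb itself was under 2-fold there in 8 of 14. Gates without their most abundant marker gave 2 in that comparison (Sfrp1 higher, Wif1 lower), 1 in heart fibroblasts, infarct against peri-infarct (Wif1 lost), 1 and 1 in heart mural cells and 0 and 0 in brain fibroblasts.

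Sign changed for Sfrp4 in brain infarct fibroblasts (-0.15, gates without their most abundant marker), for Rspo3 in the same cells (0.77 with the mean of per-cell CPM, 3.93 without the top 5% of UMIs, 1.82 without shared barcodes), and in brain peri-infarct fibroblasts for Bambi (-0.46, thinned cells) and Rspo3 (-0.69, gate margin doubled). Some ratios under 2-fold also changed sign, among them Sfrp4 in arachnoid-like cells against fibroblasts (0.43; -1.82, a lower call, with those gates), and in peri-infarct heart fibroblasts Dkk3 (0.17; lowest -0.33) and Wif1 (-0.33; highest 0.13). The cause was not tested. The 77 and 107 brain fibroblasts of peri-infarct and sham, and the 1408 median UMIs of heart sham, limit what these libraries can show.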
